A study of Mus musculus with 32 samples.

Results

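The CXC chemokines followed here are 8 ligands, Cxcl1, Cxcl2, Cxcl9, Cxcl10, Cxcl12, Cxcl13, Cxcl14 and Cxcl16, and the receptor Cxcr4. They were taken by gene symbol from 2 count tables of 33280 genes each, so that 9 of the 33280 genes are described, and they were read 1 day after an ischemic stroke in whole brain tissue and in sorted border macrophages. All mice were wild-type C57BL/6JCrl adults of both sexes. Vehicle-treated mice (CTL) received hydroxypropyl-β-cyclodextrin by gavage, and BLZ945 mice received the CSF1R inhibitor BLZ945 at 200 mg/kg daily for 7 days; blocking CSF1R, the receptor on which macrophages depend for survival, depletes them. In the paper, microglia and border macrophage numbers were back to normal 8 weeks after depletion, with part of the border macrophages newly derived from monocytes. BLZ945 mice are therefore read as repopulated, not as depleted, at the time of stroke. After 8 weeks every mouse, CTL and BLZ945 alike, had a thromboembolic stroke in the territory of 1 middle cerebral artery. The contralateral hemisphere of the same mouse is thus the only reference, and no unoperated mouse was analysed here. Each treatment had 4 mice (A2, A3, A4 and B1 in CTL, and C2, C3, C4 and D1 in BLZ945). From every mouse 1 tissue library and 1 library of sorted sdCAMs, the border macrophages of the meninges and perivascular spaces, were made from the ipsilateral and from the contralateral hemisphere. After removal of the choroid plexus the sdCAMs were sorted as CD206+ cells among CD45+CD11b+ cells that lacked Ly6C, Ly6G and CD11c.

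Chemokines of the CXC family are small secreted proteins that steer leukocytes along gradients through G protein-coupled receptors. Cxcl1 and Cxcl2 carry a glutamate-leucine-arginine motif before the paired cysteines and attract neutrophils through Cxcr2. Cxcl9 and Cxcl10 are induced by interferons and attract activated T cells and NK cells through Cxcr3. Cxcl12 acts through Cxcr4 and is made without stimulation by brain endothelium, mural cells and neurons, and Cxcl13 attracts B cells through Cxcr5. Cxcl14 is a constitutive ligand, and Cxcl16 is a membrane-anchored ligand of Cxcr6 that is released by the proteases Adam10 and Adam17.

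Depth was 9288717 to 12781505 counts on genes in the 16 tissue libraries and 7397393 to 11081409 in the 14 sdCAM libraries used. Values are CPM, the deposited counts per 1e6 of the library's total over the genes tested, after scaling by the TMM factor of edgeR. On unscaled totals, 3 counts correspond to 0.235 to 0.323 CPM in tissue and 0.271 to 0.406 CPM in sdCAMs. The ipsilateral sdCAM libraries of A3 and C2, which the labels mark as degraded RNA, held 54055 and 55155 counts and were left out. In the sdCAM libraries the 8 border macrophage markers (Mrc1, Cd163, Lyve1 and others) summed to 1453 to 9365 CPM, against 21.2 to 41.8 CPM in tissue. The same libraries also held 7754 to 29769 CPM of 8 microglia markers and up to 37595 CPM of 5 choroid plexus markers. For A3 tissue, library 19 was read as ipsilateral, as its label states, while the column names of the count table state the reverse. In bulk libraries fewer cells of a type and less RNA per cell cannot be told apart.

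The 5 upstream sequences printed here set side by side the neutrophil pair Cxcl1 and Cxcl2, the interferon pair Cxcl9 and Cxcl10, of which only Cxcl10 was detected in tissue, and the constitutive ligand Cxcl12. Each is the 250 bases before the RefSeq transcript start in GRCm38.p6, 5′ to 3′ on the strand of the gene. Capitals mark, on either strand, a core of the NF-kB motif (GGGANNTTC), of the interferon-stimulated response element (GAAANNGAA), of the interferon gamma activated site (TTCNNNGAA) or TATAAA. Cxcl1, Cxcl2, Cxcl9, Cxcl10 and Cxcl13 lie on chromosome 5, and the start sites of Cxcl1 and Cxcl2 and those of Cxcl9 and Cxcl10 are neighbours there.
Cxcl1 (chr5:90890995-90891244, + strand): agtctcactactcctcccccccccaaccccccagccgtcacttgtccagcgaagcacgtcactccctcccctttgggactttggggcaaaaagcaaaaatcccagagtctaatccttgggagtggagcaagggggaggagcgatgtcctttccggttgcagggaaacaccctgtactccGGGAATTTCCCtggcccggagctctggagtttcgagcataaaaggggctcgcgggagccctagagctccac
Cxcl2 (chr5:90903649-90903898, + strand): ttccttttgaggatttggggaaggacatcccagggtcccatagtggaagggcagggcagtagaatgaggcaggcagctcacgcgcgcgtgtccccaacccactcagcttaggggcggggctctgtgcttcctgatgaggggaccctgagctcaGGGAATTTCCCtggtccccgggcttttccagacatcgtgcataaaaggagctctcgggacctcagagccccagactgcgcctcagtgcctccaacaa
Cxcl9 (chr5:92328080-92328329, - strand): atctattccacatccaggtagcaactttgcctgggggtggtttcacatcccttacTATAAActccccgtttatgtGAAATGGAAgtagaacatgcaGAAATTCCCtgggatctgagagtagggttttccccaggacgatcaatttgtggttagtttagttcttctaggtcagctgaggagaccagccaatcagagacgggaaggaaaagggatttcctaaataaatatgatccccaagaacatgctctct
Cxcl10 (chr5:92348890-92349139, - strand): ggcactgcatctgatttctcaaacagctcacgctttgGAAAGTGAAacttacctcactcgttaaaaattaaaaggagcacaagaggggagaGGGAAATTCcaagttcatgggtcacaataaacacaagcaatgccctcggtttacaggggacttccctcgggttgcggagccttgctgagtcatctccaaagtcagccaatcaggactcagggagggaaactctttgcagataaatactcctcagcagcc
Cxcl12 (chr6:117168285-117168534, + strand): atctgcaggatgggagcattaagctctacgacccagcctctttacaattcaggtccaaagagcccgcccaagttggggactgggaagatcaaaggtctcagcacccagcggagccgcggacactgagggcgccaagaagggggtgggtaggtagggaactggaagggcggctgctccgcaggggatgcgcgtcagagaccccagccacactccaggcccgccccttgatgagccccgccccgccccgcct

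The windows searched ran from 250 bases before to 50 bases after the start, and 8 of the 9 members, all but Cxcl16, had one. Cxcl1 and Cxcl2 held the NF-kB core on both strands at overlapping positions, beginning at -71 and -69 in Cxcl1 and at -97 and -95 in Cxcl2. Cxcl10 held the NF-kB core at -159 and the interferon-stimulated core at -213, and Cxcl9 held them at -154 and -175. Among the other members Cxcl14 held an interferon-stimulated core at -172 and an interferon gamma activated site at -191, and Cxcl9, Cxcl13 and Cxcr4 held TATAAA. None of the 4 motifs was found in the window of Cxcl12. Over 32851 RefSeq windows of the same length the NF-kB core was present in 3.94%, the interferon-stimulated core in 8.56%, the interferon gamma activated site in 8.30% and TATAAA in 13.6%.

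In whole tissue Cxcl10 rose on the stroke side in CTL mice, and Cxcl1, Cxcl10 and Cxcl16 rose in BLZ945 mice, by edgeR's quasi-likelihood test with Benjamini-Hochberg adjustment over the 18968 tissue genes tested. A gene was called at an adjusted p under 0.05. Thus 1 of the 8 members tested was called higher in CTL mice, where 0.485% of all genes were called higher and 0.00527% lower, and 3 of 8 were called higher in BLZ945 mice, where 1.26% of all genes were called higher and 0.1% lower. No member was called lower in this fit, which did not pair the hemispheres of a mouse. With the mouse as a block, Cxcl12 was called lower in BLZ945 mice, as given below. The median log2 fold change was 1.37 over the members in CTL mice against -0.01 over all genes, and 1.31 in BLZ945 mice against 0.00. On the average of both treatments the same test called Cxcl1, Cxcl10 and Cxcl16 higher, against a background of 2.53% higher and 0.517% lower.

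**Figure D1:**
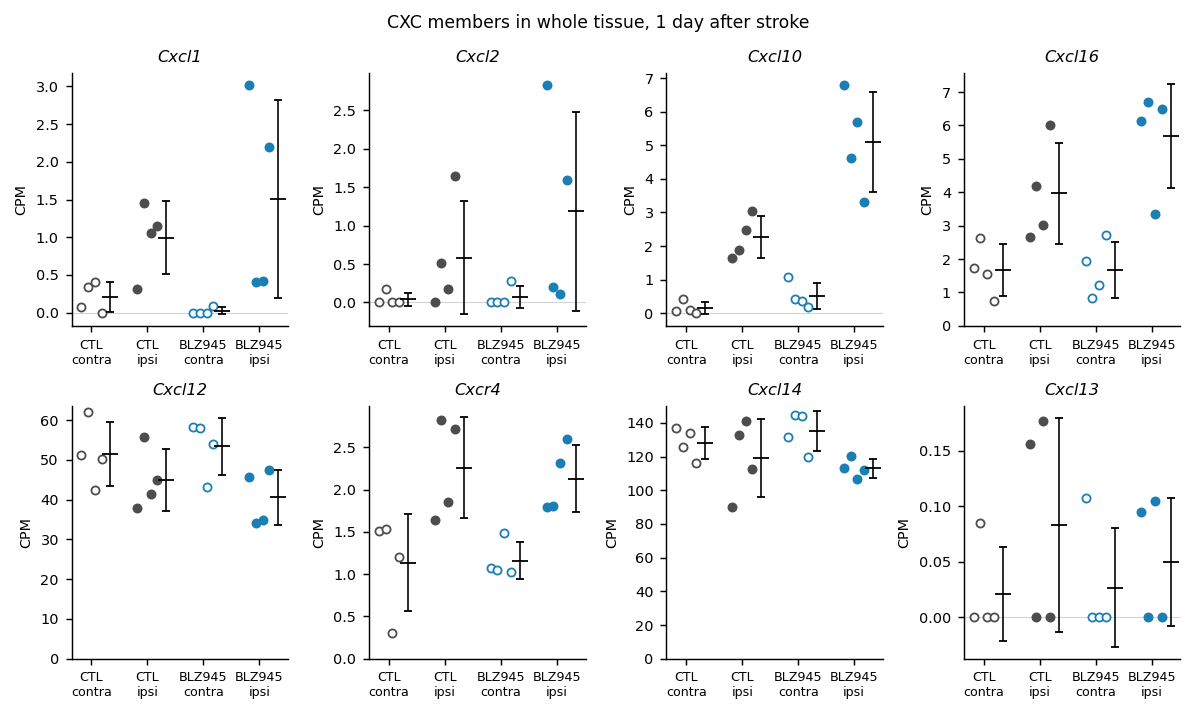
CPM of 8 members in each whole-tissue library (points, 4 mice per group, open for contralateral and filled for ipsilateral), with the mean and SD beside them as a bar; the vertical axis of each panel has its own scale. Cxcl10, Cxcl16 and Cxcr4 were higher in every ipsilateral than in every contralateral library of the same treatment, while Cxcl12 and Cxcl14 overlapped.

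Among the neutrophil ligands, Cxcl1 had 0.0793, 0.3399, 0.413 and 0 CPM in the contralateral tissue of CTL mice A2, A3, A4 and B1, and 0.312, 1.46, 1.06 and 1.15 CPM in their ipsilateral tissue. In BLZ945 mice C2, C3, C4 and D1 it had 0, 0, 0 and 0.0936 CPM contralaterally and 3.02, 0.401, 0.420 and 2.20 CPM ipsilaterally. Cxcl1 was higher ipsilaterally in all 8 mice, with no overlap in BLZ945 mice and an overlap in CTL mice through the low value of A2. The summed counts were 47 ipsilateral against 9 contralateral in CTL mice, a ratio of 4.89 with a 95% counting interval of 2.37 to 11.4, and 62 against 1 in BLZ945 mice, a ratio of 62.4 with an interval of 10.8 to 2503. The fitted log2 fold change was 5.40 ± 1.10 (SE, n = 4) in BLZ945 mice (edgeR, adjusted p = 0.0177) and 2.23 ± 0.82 in CTL mice (adjusted p = 0.575). The call in BLZ945 mice was lost without C2 (adjusted p = 0.188) or D1 (adjusted p = 0.111), the mice with the highest ipsilateral values. With 1 contralateral count, the size of the change is poorly known. The interval above covers counting error in the summed counts and not the spread between mice.

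Cxcl2, the other neutrophil ligand, was rarer. It was counted in 1 contralateral library of each treatment, with 2 counts in A3 and 3 in D1, and reached 0, 0.514, 0.177 and 1.65 CPM in the ipsilateral tissue of A2, A3, A4 and B1 and 2.83, 0.201, 0.105 and 1.60 CPM in that of C2, C3, C4 and D1. Most of the ipsilateral counts were therefore in B1, C2 and D1, and A2 had none in either hemisphere. The ratio of summed counts was 13.1 (28 against 2, interval 3.31 to 114) in CTL mice and 16.4 (49 against 3, interval 5.30 to 82.4) in BLZ945 mice. Neither passed the test (edgeR, adjusted p = 0.713 and 0.226), although Cxcl2 passed it in BLZ945 mice once the mouse was fitted as a block (log2 fold change 3.78, adjusted p = 0.0390). Counting intervals are taken on counts summed over mice, so they leave out the spread between mice. The reads carry no molecular identifiers, so copies made by amplification are not accounted for either.

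The interferon-induced ligand Cxcl10 was the member called in both treatments. Its contralateral level was 0.0793, 0.425, 0.103 and 0 CPM in A2, A3, A4 and B1, and its ipsilateral level was 1.64, 1.89, 2.48 and 3.05 CPM. In C2, C3, C4 and D1 it had 1.07, 0.418, 0.372 and 0.187 CPM contralaterally and 6.80, 4.61, 5.68 and 3.30 CPM ipsilaterally. Every ipsilateral library lay above every contralateral one in both treatments, and the groups did not touch. The mean moved from 0.152 ± 0.187 to 2.26 ± 0.630 CPM in CTL mice (SD, n = 4) and from 0.512 ± 0.386 to 5.10 ± 1.496 CPM in BLZ945 mice. The fitted change on the log2 scale was 3.77 ± 0.58 (SE; edgeR, adjusted p = 0.00426) in CTL mice and 3.31 ± 0.49 (adjusted p = 0.00158) in BLZ945 mice. Without B1 the change in CTL mice was 3.21 and missed the threshold (adjusted p = 0.0590).

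Its neighbour on chromosome 5 and partner at the receptor Cxcr3, Cxcl9, had 0 counts in all 16 tissue libraries, so that it was not tested there. There 3 counts in a single library would have been 0.235 to 0.323 CPM, and a level well below that can give 0 counts at this depth. Cxcl10 therefore rose in tissue where Cxcl9 was not detected.

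Cxcl16, the membrane-anchored ligand, was present in every tissue library. It had 1.74, 2.63, 1.55 and 0.740 CPM in the contralateral tissue of A2, A3, A4 and B1 and 2.65, 4.202, 3.01 and 6.01 CPM in the ipsilateral tissue. The BLZ945 mice had 1.93, 0.836, 1.21 and 2.72 CPM contralaterally and 6.14, 6.72, 3.36 and 6.49 CPM ipsilaterally in the order C2, C3, C4 and D1. All 8 mice were higher ipsilaterally and the groups did not overlap in either treatment, with the narrowest gap in CTL mice between A3 contralateral and A2 ipsilateral. The fitted change on the log2 scale was 1.75 ± 0.39 (SE; edgeR, adjusted p = 0.0321) in BLZ945 mice, or 3.37-fold, and 1.24 ± 0.39 (adjusted p = 0.383), or 2.36-fold, in CTL mice. Leaving out any 1 of the BLZ945 mice took the adjusted p in BLZ945 mice past the threshold, to 0.0646 without D1, 0.0782 without C4, 0.158 without C3 and 0.178 without C2.

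The receptor Cxcr4 had 1.51, 1.53, 0.309 and 1.20 CPM contralaterally and 1.64, 2.83, 1.86 and 2.72 CPM ipsilaterally in A2, A3, A4 and B1. In C2, C3, C4 and D1 it had 1.07, 1.05, 1.49 and 1.03 CPM contralaterally and 1.79, 1.80, 2.31 and 2.60 CPM ipsilaterally. The hemispheres did not overlap in either treatment, yet the log2 fold changes of 0.96 ± 0.35 (SE) in CTL and 0.87 ± 0.36 in BLZ945 mice did not pass the test (edgeR, adjusted p = 0.570 and 0.373). Cxcr4 was called on the average of both treatments in the fit with the mouse as a block, where 6 members were called, and by DESeq2.

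Counting libraries alone, 3 of the 8 members tested (Cxcl10, Cxcl16 and Cxcr4) did not overlap and were higher ipsilaterally in CTL mice, against 2.45% of all genes, and 4 (these and Cxcl1) in BLZ945 mice, against 4.2%. No member lay lower without overlap, where the share of all genes was 1.48% in CTL and 2.31% in BLZ945 mice.

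The ligand of Cxcr4, Cxcl12, was abundant in tissue and slightly lower on the stroke side. It had 51.1, 62.1, 42.5 and 50.3 CPM contralaterally and 37.9, 55.7, 41.3 and 44.9 CPM ipsilaterally in A2, A3, A4 and B1. The BLZ945 mice had 58.3, 58.0, 43.2 and 54.1 CPM contralaterally and 45.6, 34.2, 35.0 and 47.5 CPM ipsilaterally. It was lower ipsilaterally in all 8 mice, with overlapping groups in both treatments. edgeR gave a log2 fold change of -0.20 ± 0.15 (SE) in CTL and -0.39 ± 0.15 in BLZ945 mice, neither of which passed the test (edgeR, adjusted p = 0.982 and 0.285). With the mouse as a block Cxcl12 was called lower in BLZ945 mice (log2 fold change -0.40, adjusted p = 0.0201).

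Cxcl14 was the highest member in tissue at 116 to 145 CPM contralaterally and 89.8 to 141 CPM ipsilaterally. It was lower ipsilaterally in 4 of 4 BLZ945 mice and in 2 of 4 CTL mice, and its log2 fold changes of -0.26 ± 0.11 (SE) and -0.11 ± 0.11 did not pass the test (edgeR, adjusted p = 0.404 and 0.999). The B-cell ligand Cxcl13 was at the edge of detection, with at most 2 counts in any tissue library, and no change could be seen at this depth.

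The marker lists of other cells were read in the same tissue libraries. Monocyte markers had the largest median log2 fold change of the 14 lists, 2.69 in CTL mice, 2.22 in BLZ945 mice and 2.57 on the average, where Plac8 and F10 were 2 of 7 called and none was called within a treatment. Ccr2, the receptor that monocytes follow out of the blood, had 4 contralateral and 36 ipsilateral counts in CTL mice and 12 and 59 in BLZ945 mice. The summed level of the 7 monocyte markers was 19.4 to 29.6 CPM contralaterally and 24.4 to 38.3 CPM ipsilaterally in CTL mice, and 20.3 to 34.3 and 25.3 to 33.5 CPM in BLZ945 mice.

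Of 10 neutrophil markers 6 were tested, none was called within a treatment and S100a9 was called on the average (3.70 ± 0.72, edgeR, adjusted p = 0.00683). The median log2 fold change of the 6 was 0.51 in CTL mice (-0.19 to 3.77) and 0.43 in BLZ945 mice (-1.15 to 3.63). S100a9, a calcium-binding protein abundant in neutrophils, went from 4 to 65 counts in CTL and from 4 to 54 counts in BLZ945 tissue, S100a8 from 5 to 16 and from 13 to 34, and Ly6g was at 0 except for 2 counts in ipsilateral BLZ945 tissue. The sum of the list overlapped between hemispheres, at 7.74 to 9.53 and 7.81 to 11.5 CPM in CTL mice and 6.64 to 9.51 and 7.62 to 12.8 CPM in BLZ945 mice, contralateral first. Border macrophage markers summed to 23.03 to 30.9 and 30.8 to 33.9 CPM in CTL mice, with 0 of 8 called, and to 21.2 to 25.6 and 31.6 to 41.8 CPM in BLZ945 mice, with 1 called higher. Endothelial markers summed to 198 to 266 and 229 to 311 CPM in CTL mice, with 0 of 7 called, and to 197 to 255 and 228 to 334 CPM in BLZ945 mice, with 2 called higher. Of the remaining lists, 1 of 6 astrocyte markers was called higher in each treatment. In BLZ945 mice 2 of 8 microglia markers were called lower and 1 of 6 fibroblast markers higher. T and NK cell markers had median log2 fold changes of 2.00 in CTL and 1.15 in BLZ945 mice, with none of the 5 tested called. No B cell, mural cell, neuron, oligodendrocyte, choroid plexus or red blood cell marker was called in either treatment. The part of any of these cells in the ligand values was not tested.

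The tissue calls rest on the reading of A3. With the hemispheres of A3 as the column names have them, no member was called in either treatment. The log2 fold change of Cxcl10 in CTL mice was then 1.82 (edgeR, adjusted p = 1), and in BLZ945 mice, whose libraries were the same, it stayed at 3.31 with an adjusted p of 0.0942. In the library read here as ipsilateral A3 had 22 counts of Cxcl10, 17 of Cxcl1 and 49 of Cxcl16, and in the other 5, 4 and 31. With the mouse as a block and the column names, Cxcl1 and Cxcl10 were called in BLZ945 mice and none in CTL mice.

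**Figure D2:**
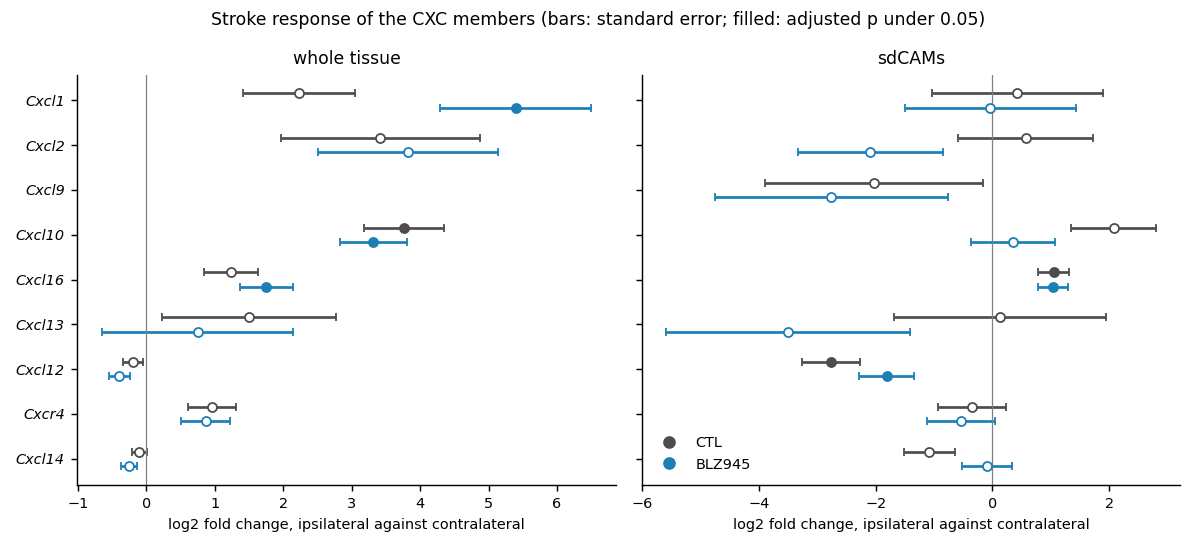
Fitted log2 fold changes of ipsilateral against contralateral for each member in whole tissue (left) and sdCAMs (right), CTL in grey and BLZ945 in blue, with standard errors as bars and called genes filled. In tissue Cxcl10 rose in both treatments and Cxcl1 and Cxcl16 in BLZ945 mice, and in sdCAMs Cxcl16 rose and Cxcl12 fell in both; Cxcl9 had no tissue counts.

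In the sorted sdCAMs 2 members changed on the stroke side in both treatments. Cxcl16 rose and Cxcl12 fell. All 9 members were tested among 18297 genes. In CTL mice 1 member was called higher and 1 lower, against 0.426% of all genes higher and 2.36% lower. In BLZ945 mice the same 2 members were called, against 1.2% higher and 4.41% lower, and also on the average of both treatments, against 4.98% higher and 11.2% lower. On the average, 1 of 9 called lower is close to the share of all genes, and a single member called higher is the fewest possible if any was called. Neither of these counts on the average is a result about the members. The median log2 fold change over the members was 0.13 in CTL mice against -0.11 over all genes, and -0.54 in BLZ945 mice against -0.15.

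Cxcl16 had 117, 83.1, 77.4 and 147 CPM in the contralateral sdCAMs of A2, A3, A4 and B1, and 221, 177 and 260 CPM in the ipsilateral sdCAMs of A2, A4 and B1. In BLZ945 mice it had 190, 129, 98.6 and 188 CPM contralaterally in C2, C3, C4 and D1 and 332, 306 and 292 CPM ipsilaterally in C3, C4 and D1. All 6 mice with both libraries were higher ipsilaterally, and the ipsilateral libraries lay above all contralateral ones in each treatment. The mean moved from 106 ± 32.3 (SD, n = 4) to 219 ± 41.6 CPM (n = 3) in CTL mice and from 151 ± 45.3 to 310 ± 20.6 CPM in BLZ945 mice. edgeR gave a log2 fold change of 1.05 ± 0.26 (SE; edgeR, adjusted p = 0.0459) in CTL mice, or 2.07-fold, and 1.03 ± 0.26 (adjusted p = 0.0322) in BLZ945 mice, or 2.05-fold.

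The border macrophage markers were also higher in these ipsilateral libraries. Their sum was 1707 to 5996 CPM contralaterally and 4385 to 7915 CPM ipsilaterally in CTL mice, and 1453 to 4292 and 5075 to 9365 CPM in BLZ945 mice. None of the 8 was called in CTL mice (median log2 fold change 0.67), 2 were called higher in BLZ945 mice (1.40) and 7 on the average (1.11), beside 1.04 for Cxcl16 on the average. The 8 microglia markers had median log2 fold changes of 0.31 in CTL and 0.59 in BLZ945 mice, with none called. On the average their median was 0.46, with 2 called higher. The part of either list in the rise of Cxcl16 was not tested.

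The call of Cxcl16 in CTL mice was close to the threshold. It was lost with the mouse as a block (log2 fold change 0.98, adjusted p = 0.0662) and without any 1 of A2, A3, A4, B1, C2, C3 or D1 (adjusted p between 0.0529 and 0.127), while the log2 fold change stayed between 0.95 and 1.10. In BLZ945 mice it was lost without C3, C4 or D1 (adjusted p = 0.178, 0.163 and 0.0588) and kept with the block. With all 16 sdCAM libraries it was 0.70 in CTL and 0.81 in BLZ945 mice and passed in neither (adjusted p = 0.759 and 0.624).

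**Figure D3:**
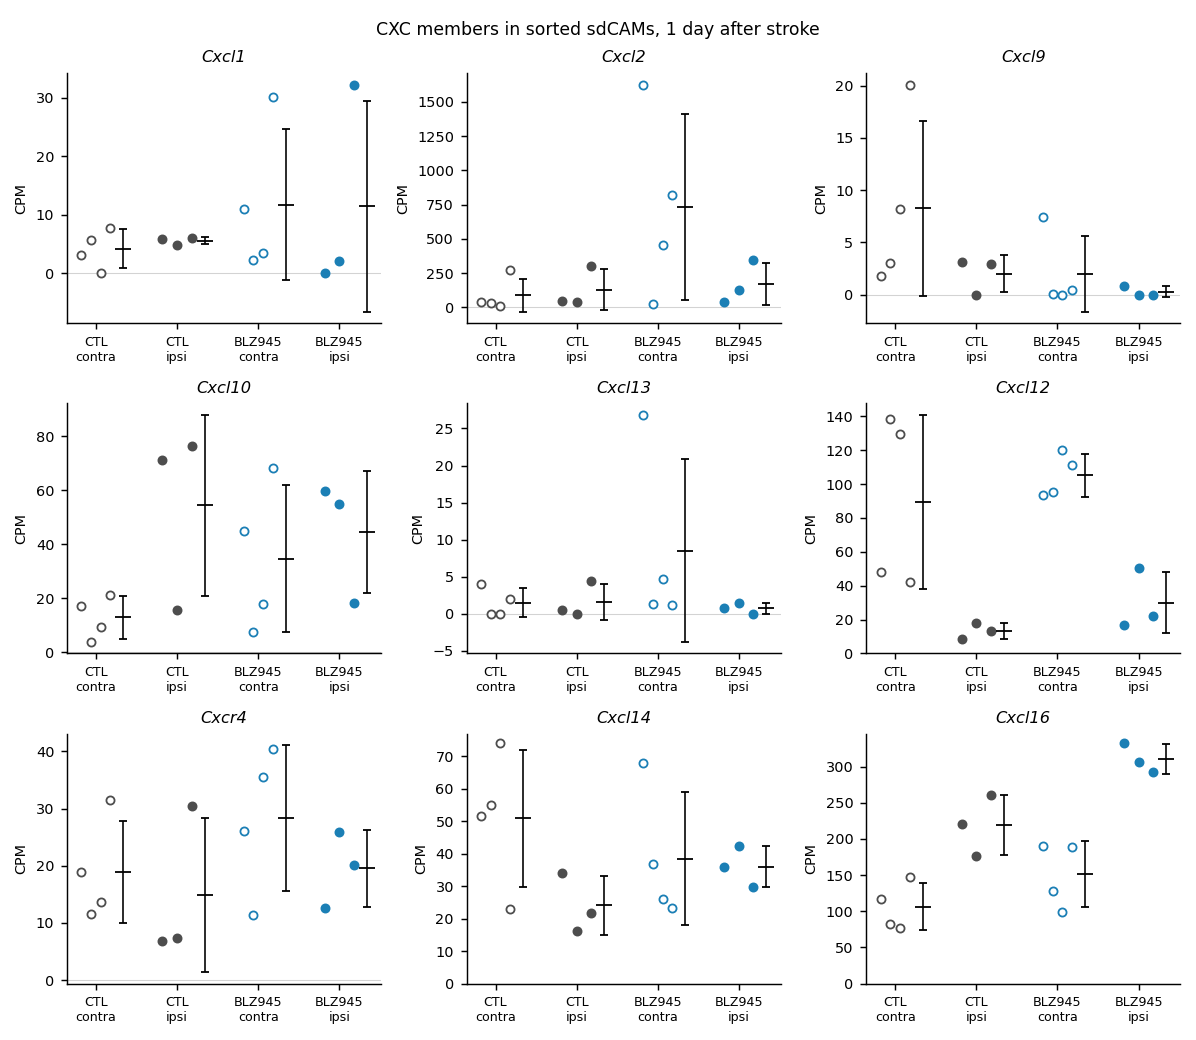
CPM of the 9 members in each sdCAM library (points, open for contralateral with 4 mice per treatment, filled for ipsilateral with 3), with the mean and SD beside them as a bar; each panel has its own vertical scale. Cxcl16 lay higher and Cxcl12 lower in every ipsilateral library of a treatment, and Cxcl2 in BLZ945 contralateral libraries ran from 20.7 to 1625 CPM.

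Cxcl12 had 48.2, 139, 129 and 42.4 CPM in the contralateral sdCAMs of A2, A3, A4 and B1 and 8.402, 17.8 and 13.4 CPM ipsilaterally in A2, A4 and B1. In BLZ945 mice it had 93.5, 95.5, 120 and 112 CPM contralaterally in C2, C3, C4 and D1 and 17.1, 50.5 and 22.3 CPM ipsilaterally in C3, C4 and D1. Within each treatment the ipsilateral libraries lay below all contralateral ones, and Cxcl12 was lower ipsilaterally in all 6 mice. The mean moved from 89.6 ± 51.4 (SD, n = 4) to 13.2 ± 4.69 CPM (n = 3) in CTL and from 105 ± 12.9 to 30.0 ± 17.95 CPM in BLZ945 mice. The log2 fold change was -2.76 ± 0.49 (SE; edgeR, adjusted p = 0.00953) in CTL and -1.81 ± 0.47 (adjusted p = 0.0348) in BLZ945 mice. In BLZ945 mice the call was lost without C2, C3 or D1 (adjusted p = 0.0559, 0.167 and 0.151) and with all 16 libraries (log2 fold change -1.30, adjusted p = 0.315).

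Endothelial markers fell with Cxcl12 in the same libraries. The 7 markers, Cldn5, Pecam1, Cdh5, Flt1, Kdr, Tek and Ly6c1, summed to 743 to 2325 CPM in contralateral and 69.4 to 176 CPM in ipsilateral sdCAMs of CTL mice, and to 1173 to 2164 and 50.8 to 77.6 CPM in BLZ945 mice, and none was at 0 in any group. All 7 were called lower in BLZ945 mice and 6 of 7, all but Tek, in CTL mice. Cldn5, a tight junction protein of brain endothelium, had log2 fold changes of -3.88 ± 0.58 (SE; edgeR, adjusted p = 0.00434) in CTL and -4.64 ± 0.61 (adjusted p = 0.000962) in BLZ945 mice. The 6 mural cell markers summed to 884 to 2840 and 64.7 to 304 CPM in CTL mice and to 1086 to 4591 and 118 to 204 CPM in BLZ945 mice, contralateral first. Other lists fell in the same libraries. On the average of both treatments 7 of 7 endothelial, 5 of 6 mural cell, 6 of 6 oligodendrocyte, 5 of 6 astrocyte and 3 of 5 choroid plexus markers were called lower, with median log2 fold changes of -4.26, -2.43, -2.60, -1.99 and -4.36, beside -2.29 for Cxcl12. The part of RNA from these cells in the fall of Cxcl12 was not tested.

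**Figure D4:**
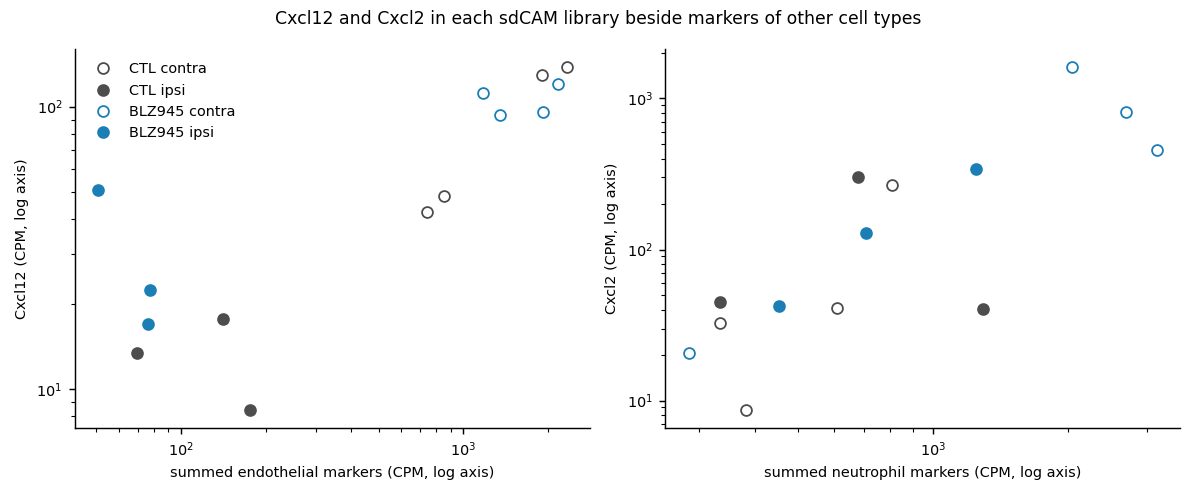
Each of the 14 sdCAM libraries by the summed CPM of 7 endothelial markers against Cxcl12 (left) and of 10 neutrophil markers against Cxcl2 (right), both axes on a log scale, CTL in grey, BLZ945 in blue, ipsilateral filled. Ipsilateral libraries lay at 50.8 to 176 CPM of endothelial markers and 8.402 to 50.5 CPM of Cxcl12, and the 3 libraries with the highest neutrophil sums had 3161, 2690 and 2039 CPM with 458, 819 and 1625 CPM of Cxcl2, followed by 1295 CPM with 40.5 CPM.

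Cxcl2 varied widely between sdCAM libraries. It had 41.2, 32.6, 8.61 and 269 CPM contralaterally in A2, A3, A4 and B1 and 45.1, 40.5 and 304 CPM ipsilaterally in A2, A4 and B1. In BLZ945 mice it had 1625, 20.7, 458 and 819 CPM contralaterally in C2, C3, C4 and D1 and 42.0, 129 and 343 CPM ipsilaterally in C3, C4 and D1. B1 was high on both sides and C4 and D1 were higher contralaterally, so mice differed more than hemispheres. The log2 fold change was 0.57 ± 1.16 (SE) in CTL and -2.09 ± 1.24 in BLZ945 mice and passed in neither (edgeR, adjusted p = 0.859 and 0.329). The 10 neutrophil markers summed to 2039, 285, 3161 and 2690 CPM in the contralateral sdCAMs of C2, C3, C4 and D1, and to 335 to 809 CPM in those of CTL mice. The 7 monocyte markers summed to 1003, 173, 456 and 992 CPM in the same BLZ945 libraries and to 116 to 205 CPM in the CTL ones. Among these C3 had the lowest Cxcl2 and the lowest sum of both lists, while the other 3 had the reverse order for neutrophil markers and Cxcl2. In CTL mice the ipsilateral library of A4 had 1295 CPM of neutrophil markers with 40.5 CPM of Cxcl2, and B1 had 681 to 809 CPM with 269 to 304 CPM. The part of neutrophils and monocytes in the level of Cxcl2 was not tested.

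Cxcl1 was scarce in sdCAMs at 0 to 7.76 CPM in CTL libraries and was led in BLZ945 mice by D1, with 30.2 CPM contralaterally and 32.2 CPM ipsilaterally. The other BLZ945 libraries had 0 to 11.02 CPM. Its log2 fold changes were 0.43 ± 1.46 (SE) in CTL and -0.03 ± 1.46 in BLZ945 mice, and neither passed.

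Cxcl10 was higher ipsilaterally in 3 of 3 CTL mice, with 17.2, 9.37 and 21.3 CPM contralaterally in A2, A4 and B1 against 71.1, 15.8 and 76.3 CPM ipsilaterally, and 3.77 CPM in the unpaired contralateral library of A3. In BLZ945 mice C3 and C4 had 7.65 and 18.1 CPM contralaterally and 59.8 and 55.0 CPM ipsilaterally, D1 had 68.3 and 18.4 CPM, with 44.8 CPM in contralateral C2. The groups overlapped in both treatments. The log2 fold change was 2.08 ± 0.73 (SE) in CTL mice (edgeR, adjusted p = 0.141) and 0.36 ± 0.71 in BLZ945 mice (adjusted p = 0.833), and DESeq2 called the first (adjusted p = 0.0434). Cxcl9 was at 0 to 20.1 CPM in CTL and 0 to 7.47 CPM in BLZ945 libraries, with 4 libraries at 0, and in BLZ945 mice 59 of its 71 counts were in contralateral C2. Its log2 fold changes of -2.03 ± 1.87 and -2.76 ± 2.00 did not pass.

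Cxcr4 on sdCAMs ran from 11.6 to 31.6 CPM contralaterally and from 6.77 to 30.5 CPM ipsilaterally in CTL mice, and from 11.5 to 40.4 and 12.6 to 25.98 CPM in BLZ945 mice. Its log2 fold changes were -0.34 ± 0.58 (SE) and -0.54 ± 0.59 and did not pass (edgeR, adjusted p = 0.816 and 0.638). Cxcl14 was lower ipsilaterally in 3 of 3 CTL mice, from 51.5, 74.0 and 23.1 to 34.1, 16.2 and 21.9 CPM in A2, A4 and B1, and in 1 of 3 BLZ945 mice, with log2 fold changes of -1.08 ± 0.44 and -0.10 ± 0.43 that did not pass (adjusted p = 0.206 and 0.942). Cxcl13 was at 0 to 4.64 CPM apart from 26.8 CPM in contralateral C2 and did not pass in either treatment.

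By library, 1 of 9 members (Cxcl16) was higher without overlap on the ipsilateral side in each treatment, against 5.7% of all genes in CTL and 7.44% in BLZ945 mice, and 1 (Cxcl12) was lower without overlap, against 10.2% and 12.4%. A count of 1 in 9 is close to the shares of all genes lower without overlap. In the higher direction a single member is the fewest that could be seen if any qualified. Neither count is therefore a result about the members.

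Compared per kilobase of exon, the order of the members differed between the compartments. The length is the union of exon bases over all GENCODE transcripts of a gene, 8176 for Cxcl12 and 1827 for Cxcl14, and the order depends on it. By mean CPM in contralateral sdCAMs, Cxcl12 at 97.4 lay above Cxcl14 at 44.7. In contralateral tissue these were 52.5 and 132 CPM. In contralateral tissue Cxcl14 led at 72.1 ± 5.81 CPM per kb (SD, n = 8), followed by Cxcl12 at 6.42 ± 0.868, and the next pair, Cxcr4 at 0.635 ± 0.222 and Cxcl16 at 0.553 ± 0.247, did not differ beyond its spread. Cxcl10 followed at 0.147 ± 0.151 CPM per kb, and Cxcl1, Cxcl2 and Cxcl13 at 0.0617, 0.0273 and 0.0209 lay within each other's spread. In ipsilateral tissue Cxcl10 at 1.63 ± 0.822, Cxcl16 at 1.60 ± 0.560 and Cxcr4 at 1.21 ± 0.263 CPM per kb formed an overlapping group behind Cxcl14 at 63.6 and Cxcl12 at 5.23. In contralateral sdCAMs Cxcl2 had the highest mean, 198 ± 275 CPM per kb, a spread that covers every other member, followed by Cxcl16 at 42.6 ± 14.5 and Cxcl14 at 24.5 ± 11.1. In ipsilateral sdCAMs Cxcl16 at 87.6 ± 19.1 (n = 6) and Cxcl2 at 72.8 ± 67.0 overlapped, Cxcl10 followed at 21.9 ± 11.6 and Cxcl12 was down to 2.64 ± 1.82 CPM per kb.

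**Figure D5:**
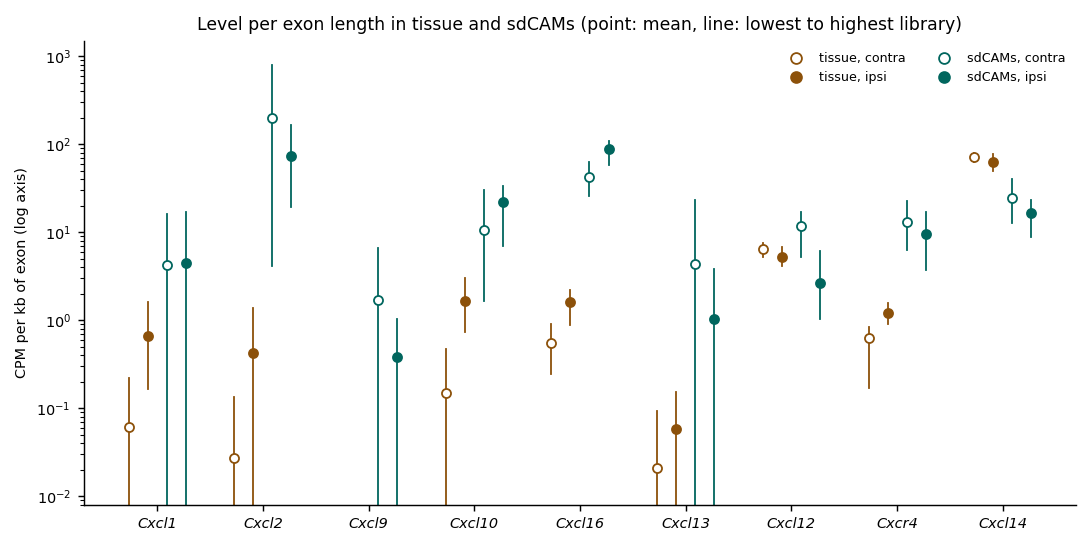
CPM per kilobase of exon on a log axis for each member in tissue (brown) and sdCAMs (green), contralateral open and ipsilateral filled, as the mean over both treatments with a line from the lowest to the highest library; a line that reaches the lower edge includes a library at 0. Cxcl16 stood at 42.6 and 87.6 CPM per kb in sdCAMs against 0.553 and 1.60 in tissue, and Cxcl14 was the only member with a lower mean in sdCAMs on both sides.

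Set beside tissue without a test, because compartment and preparation cannot be told apart, the mean CPM of Cxcl16 in sdCAMs was 77.1 times that in tissue contralaterally and 54.9 times ipsilaterally. Cxcr4 stood at 20.6 and 7.85 times, Cxcl10 at 71.7 and 13.4 times, and Cxcl12 at 1.86 and 0.504 times its tissue level. Cxcl14 was at 0.339 and 0.259 times. For Cxcl10 the fall of the ratio came with a tissue level that rose from 0.332 to 3.68 CPM on the mean of both treatments while the sdCAM level moved from 23.8 to 49.4 CPM.

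The effect of the earlier BLZ945 treatment was read in each hemisphere separately, and the interaction asked whether the stroke response differed between the treatments. No member was called in any of these comparisons, and 0% of all genes were called by edgeR in each, in tissue and in sdCAMs. At an unadjusted p under 0.05 there was 1 member in ipsilateral tissue and 1 in contralateral tissue (Cxcl10 in both), 1 in ipsilateral sdCAMs (Cxcl12), 1 in contralateral sdCAMs (Cxcl2) and 0 in either interaction. Over all genes these were 858 and 616 of 18968 in tissue, 1034 and 1133 of 18297 in sdCAMs, and 386 and 912 for the interactions. DESeq2 called no member, with 1, 0 and 0 genes called in tissue and 128, 44 and 48 in sdCAMs for ipsilateral, contralateral and interaction.

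For Cxcl10 all 4 ipsilateral BLZ945 libraries, at 3.30 to 6.80 CPM, lay above all 4 CTL libraries, at 1.64 to 3.05 CPM. Cxcl10 was the only 1 of 8 members to do so, against 1.15% of all genes, and 0 members did so contralaterally, against 1.2%. The log2 difference was 1.17 ± 0.41 (SE) ipsilaterally and 1.62 ± 0.69 contralaterally and passed in neither hemisphere (edgeR, adjusted p = 0.958 and 1). Its interaction was -0.45 ± 0.74 on the log2 scale. For Cxcl1 the interaction was 3.17 ± 1.53, a value that rests on the single contralateral count in BLZ945 mice, and for Cxcl16 it was 0.52 ± 0.55, all with an adjusted p of 1.00. A change called in one treatment and not in the other was therefore not shown to differ between them for Cxcl1 or Cxcl16.

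In sdCAMs Cxcl16 lay higher in all 3 ipsilateral BLZ945 libraries, 292 to 332 CPM, than in the 3 CTL ones, 177 to 260 CPM, as the only 1 of 9 members, against 3.1% of all genes, and 0 members did so contralaterally, against 1.45%. The log2 difference was 0.50 ± 0.28 (SE; edgeR, adjusted p = 0.841), and the interaction was -0.01 ± 0.37, so its change from contralateral to ipsilateral had nearly the same size in both treatments. Cxcl12 was 1.18 ± 0.49 higher on the log2 scale in ipsilateral BLZ945 sdCAMs (adjusted p = 0.838), with an interaction of 0.95 ± 0.63. Contralateral Cxcl2 was 3.06 ± 1.16 higher in BLZ945 mice (adjusted p = 0.759), with C2, C4 and D1 above all CTL libraries and C3 among them.

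Other genes of the pathway were called in tissue beside the members. Of the other ligands 4 of 7 were tested, and Cxcl3, a further neutrophil ligand, was called higher on the average of both treatments, with 0 counts in all 8 contralateral libraries and 26 and 55 counts in the ipsilateral libraries of CTL and BLZ945 mice. Its receptor Cxcr2 was also at 0 contralaterally and had 11 and 24 ipsilateral counts, and it too was called on the average (edgeR, adjusted p = 0.0228, against 0.0186 for Cxcl3). Of the receptors and scavengers 5 of 7 were tested, and the scavenger Ackr1, which binds many chemokines on venules, rose by 0.47 ± 0.09 on the log2 scale in BLZ945 mice (adjusted p = 0.0154). Of the processing genes and co-receptors 6 of 6 were tested and only Cd74 was called, on the average (1.42 ± 0.34, adjusted p = 0.0287).

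Among 5 tested inducing cytokines, Il1b was called in BLZ945 mice (log2 fold change 4.23 ± 0.98, edgeR, adjusted p = 0.0391), and Il1a, Il1b, Tnf and Il6 on the average. Ifng, the inducer of Cxcl9, had 0 counts in all 16 tissue libraries. Of the 8 NF-kB feedback genes Nfkbiz was called in BLZ945 mice (1.16 ± 0.26, adjusted p = 0.0321) and Nfkbiz and Nfkb2 on the average. Of the 14 interferon response genes 2 were called in CTL mice, the guanylate-binding proteins Gbp2 (1.72 ± 0.32, adjusted p = 0.0183) and Gbp3 (1.17 ± 0.23, adjusted p = 0.0269), 7 in BLZ945 mice (Irf7, Irf9, Ifit1, Ifit3, Oasl2, Gbp2 and Gbp3) and 8 on the average, none of them lower. Their median log2 fold change was 0.59 in CTL and 1.35 in BLZ945 mice.

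In sdCAMs other genes of the same lists were called. No inducing cytokine, NF-kB feedback gene or interferon response gene was called in either treatment, and Rel and Irf9 were called higher on the average. Adam10 and Adam17, which shed Cxcl16 from the membrane, were called higher in BLZ945 mice (log2 fold change 0.92 ± 0.19 and 0.97 ± 0.26, edgeR, adjusted p = 0.0128 and 0.0372), alongside the rise of Cxcl16 itself, and together with Cd74 on the average. The ligand Pf4, known from platelets and expressed by border macrophages, rose by 1.44 ± 0.36 in BLZ945 mice (adjusted p = 0.0293). The 8 border macrophage markers had log2 fold changes of 1.12 to 1.68 in the same comparison, and their part in the rise of Pf4, Adam10 and Adam17 was not tested. The scavenger Ackr1 had log2 fold changes of -4.81 ± 0.81 in CTL mice and -3.98 ± 0.77 in the BLZ945 group (adjusted p = 0.00712 and 0.00833), and Ackr3, which binds Cxcl12, had -3.14 ± 0.87 on the average (adjusted p = 0.0239). Both moved together with the endothelial markers given above, and the part of endothelial RNA in their fall was not tested.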

How the data were processed

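RNA-seq was performed on 16 whole-tissue and 16 sdCAM libraries, each from 1 hemisphere of 1 mouse. The values are whole-number read counts per gene, deposited by the authors without normalization; the submitters' processing notes name bcl2fastq 2.20, STAR 2.7.11a, featureCounts 2.0.8 and DESeq2 1.46.0. The build is named in 2 ways without saying which applied, so coordinates and sequences come from RefSeq GRCm38.p6 and exon lengths from GENCODE. The strand setting of the counting is not given in the sources used here.

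Groups came from the labels. Genes entered the test when their counts summed to 8 or more in tissue or to 7 or more in sdCAMs. They were tested in R 4.3.3 with edgeR 4.0.16 (TMM, quasi-likelihood test, 4 group means per compartment), two-sided, with Benjamini-Hochberg adjustment over all genes tested. Every adjusted p is from edgeR unless DESeq2 1.42.0 is named. The SE of an edgeR log2 fold change is its absolute value divided by the square root of the test's F statistic. It is approximate, above all for genes with few counts. No fold threshold was set. The fits were tested on simulated data. Ratios of sparse counts have exact 95% intervals. The members and gene lists were chosen with earlier results of these data known. All members are named, and other genes are named where called in a list or as the 3 most like a member, of which 1 is not reported here.

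The hemispheres of a mouse share its number. Deviations from the group means correlated within mice with a median r of 0.436 in tissue (0.214 to 0.645, 8 mice) and 0.122 in sdCAMs (0.0451 to 0.191, 6 mice), so a fit with the mouse as a block was an alternative. Others were DESeq2, other size factors, no filter, filterByExpr, a fold threshold, leaving out each mouse, all 16 sdCAM libraries and, added after seeing the data, the column-name reading of A3 with the block.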

Additional observations from a re-analysis of the deposited data

Results flagged for a closer look

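In 43 groups of 4 libraries, 4 single values stood apart by Dixon's test, which chance alone does in about 1 of 20 groups. Cxcr4 had 1.49 CPM in the contralateral tissue of BLZ945 mouse C4, against 1.03 to 1.07 CPM in the other 3 mice. Cxcl2 had 269 CPM in the contralateral sdCAMs of CTL mouse B1. In the contralateral sdCAMs of BLZ945 mouse C2, Cxcl9 had 7.47 CPM and Cxcl13 had 26.8 CPM, the highest of the BLZ945 libraries for both genes.

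The ipsilateral sdCAM library of C2, left out for its degraded RNA, held 12 counts of Cxcl12, or 218 CPM with an exact 95% counting interval of 112 to 380, and 11 counts of Cxcl16, or 199 CPM with an interval of 99.6 to 357. These CPM are on the unscaled total of the library. The value of Cxcl12 lay above the TMM-scaled values of all 14 sdCAM libraries used. The other library left out, that of A3, held 2 counts of Cxcl12 and 1 of Cxcl16.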

How the results depend on the processing

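No called value of a member changed sign under the alternatives run, but counts of members called often moved. In tissue 1 member was called in CTL mice, 0 to 1 when single mice were left out (0 without B1), and 0 with the hemispheres of A3 as in the column names, with or without the mouse as a block. In BLZ945 mice 3 were called, 1 to 3 when single mice were left out, 0 with the column names, and 5 with the replicate block, which added Cxcl2 and Cxcl12. On the average 3 were called, 5 by DESeq2, 6 with the replicate block, 0 with the column names and 2 with the column names and the block (Cxcl10 and Cxcl16). In sdCAMs 2 members were called in each treatment and on the average. In CTL mice there were 1 to 2 when single mice were left out, 1 with the replicate block and 1 with all 16 libraries. In BLZ945 mice there were 0 to 2 when single mice were left out and 0 with all 16 libraries, and on the average 1 with all 16 libraries. The paired fit changed no other count of members by over 1.5 times, and no member was called between treatments or in the interaction under any setting run.

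Over all genes, tissue calls numbered 93 in CTL mice, 162 by DESeq2, 250 with the replicate block, 24 to 96 without single mice and 0 with the column names. They numbered 258 in BLZ945 mice, against 479, 785, 81 to 261 and 6, and 578 on the average, against 886, 1344, 319 to 564 and 1, with 381 under a fold threshold. In sdCAMs they numbered 510 in CTL mice, 1823 by DESeq2, 293 with the block, 139 to 612 without single mice and 205 with all 16 libraries. There were 1027 in BLZ945 mice, against 2518 by DESeq2, 270 to 1220 without single mice and 428 with all 16 libraries, and 2966 on the average, against 1931 with the block, 1855 to 2612 without single mice and 1186 with all 16 libraries. Between treatments, where edgeR called 0, at most 7 genes were called when a single mouse was left out, and DESeq2 called up to 128. The causes of these shifts were not tested. Depth limits Cxcl1, Cxcl2, Cxcl9 and Cxcl13 in tissue, where contralateral libraries held 0 to 4 counts. It also limits Cxcl10, with 0 to 5 contralateral counts per library in CTL mice and 2 to 10 in BLZ945 mice.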

Other observations

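The genes most like a member were found by Pearson's r of log2 CPM (prior count 2) across libraries, as a description, since the libraries share hemisphere and treatment differences. In the 16 tissue libraries the genes near Cxcl10 included Osmr (r = 0.936) and Parp3 (0.930), and Cxcl16 was most like Ftl1 (0.943), Srgn (0.928) and Capg (0.927). With a prior count of 0.5 the nearest to Cxcl10 became Aspg, Usp18 and C1qb, while the 3 nearest to Cxcl16 were the same. Cxcl12 was most like Acot11 (0.9001), Atp13a5 (0.877) and Pltp (0.857), Cxcl14 most like Phactr3 (0.917), Gldc (0.909) and Mfge8 (0.893), and Cxcr4 most like Ctla2a (0.840), Ncf4 (0.840) and Slc14a1 (0.836).

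In the 14 sdCAM libraries Cxcl16 was most like Arpc2 (r = 0.944), Msn (0.944) and Jak1 (0.940), Cxcl12 most like Nedd4 (0.965), Wnt5b (0.952) and Gm19935 (0.949), and Cxcl2 most like Mxd1 (0.917), AA467197 (0.916) and Osm (0.909). No gene was among the nearest 3 of the same member in both compartments.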
